A study of Mus musculus with 9 samples.

Results

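A set of 10 genes of prostaglandin and leukotriene metabolism, chosen by name, was followed through 9 RNA-seq libraries of mouse intestinal epithelium. They are 10 of the 78239 genes in the deposited count table, and each had a count in at least 1 library: Pla2g4a, Ptgs1, Ptgs2, Ptges, Hpgds, Alox5, Alox5ap, Ltc4s, Ptger4 and Hpgd. The mice, of the Lgr5-2A-eGFP strain, were 8 weeks old, and polyadenylated RNA was taken from crypt cells sorted on green fluorescent protein (GFP), which these mice make together with Lgr5, a receptor carried by intestinal stem cells. Every library came from this reporter strain and no treatment is named. There were 3 libraries each of GFP-high colon cells, of GFP-negative colon cells and of small intestine. Which GFP fraction the small intestine was taken from is not in the labels, and tissue and fraction cannot be told apart in comparisons with it. The sort used GFP alone as far as the protocol says, with at least 30000 cells collected per colon fraction and 50000 for small intestine. Nothing in the labels says that each library is a different animal, and the p-values measure only the spread between these libraries, which may be technical.

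Prostaglandins and leukotrienes are short-lived lipid messengers made from arachidonic acid, which phospholipases release from membranes. Cyclooxygenases turn it into prostaglandin H, from which separate synthases make prostaglandin E or prostaglandin D, while 5-lipoxygenase with its activating protein opens the branch to leukotriene A, the source of leukotriene B and of the cysteinyl leukotrienes. In the gut, prostaglandin E acts on crypt cells, and tuft cells, a rare chemosensory epithelial cell type, are known to carry cyclooxygenase 1, 5-lipoxygenase, leukotriene C synthase and the hematopoietic prostaglandin D synthase.

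The libraries held 86621513 to 106673547 counts, so a count of 3 made between 0.0232 and 0.0411 CPM (the usual counts-per-library unit, here on library sizes scaled by TMM, the trimmed mean of M values). Epithelial markers were high throughout, with a summed level of 10430 to 24984 CPM over 7 genes, while 7 stromal markers summed to 1.21 to 6.32 CPM and 4 endothelial markers to 1.48 to 8.52 CPM in colon and 0.620 to 1.36 CPM in small intestine. Of the latter list Cdh5 had no count in any library, and none of the 2 stromal and 2 endothelial markers high enough to test was called in any comparison. Lgr5 went against the labels in 1 pair: the library labelled GFP-high replicate 2 had 0.958 CPM and the library labelled GFP-negative replicate 2 had 62.1 CPM, against 43.5 and 73.0 CPM in the other GFP-high and 2.84 and 6.28 CPM in the other GFP-negative libraries. Colon directions by GFP therefore rest on labels that Lgr5 contradicts in that pair. White blood cell markers (15 genes) summed to 2.56, 311 and 20.6 CPM in GFP-high replicates 1 to 3, to 628, 4.02 and 2798 CPM in GFP-negative and to 50.1, 14.6 and 40.1 CPM in small intestine. In these bulk libraries, fewer cells of a type and less RNA per cell cannot be told apart.

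Between colon and small intestine, 2 of the 9 members tested were called, and both were higher in colon: Hpgds, the synthase of prostaglandin D, and Ptges, an inducible synthase of prostaglandin E. A gene was called where the Benjamini-Hochberg adjusted p over all 20610 genes tested was under 0.05 in edgeR's quasi-likelihood test. The GFP-high libraries against small intestine gave 2 of 9 where 5.63% of all genes were called (3.91% higher, 1.72% lower), and both colon groups against small intestine gave the same count where 8.76% were called (5.02% higher). Between the colon fractions edgeR called none of the 9 members and none of all genes (0.0%), with 222 genes (1.08%) at an unadjusted p under 0.05. DESeq2 called 0 members there too and 1 gene in all (0.00485%). The median log2 difference of the 9 members was 0.31 between the colon fractions, 0.54 for GFP-high against small intestine and 0.30 for both colon groups against small intestine, beside -0.02, 0.02 and -0.00 over all genes tested. The comparisons with small intestine share its 3 libraries, and both contain the GFP-high libraries.

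**Figure D1:**
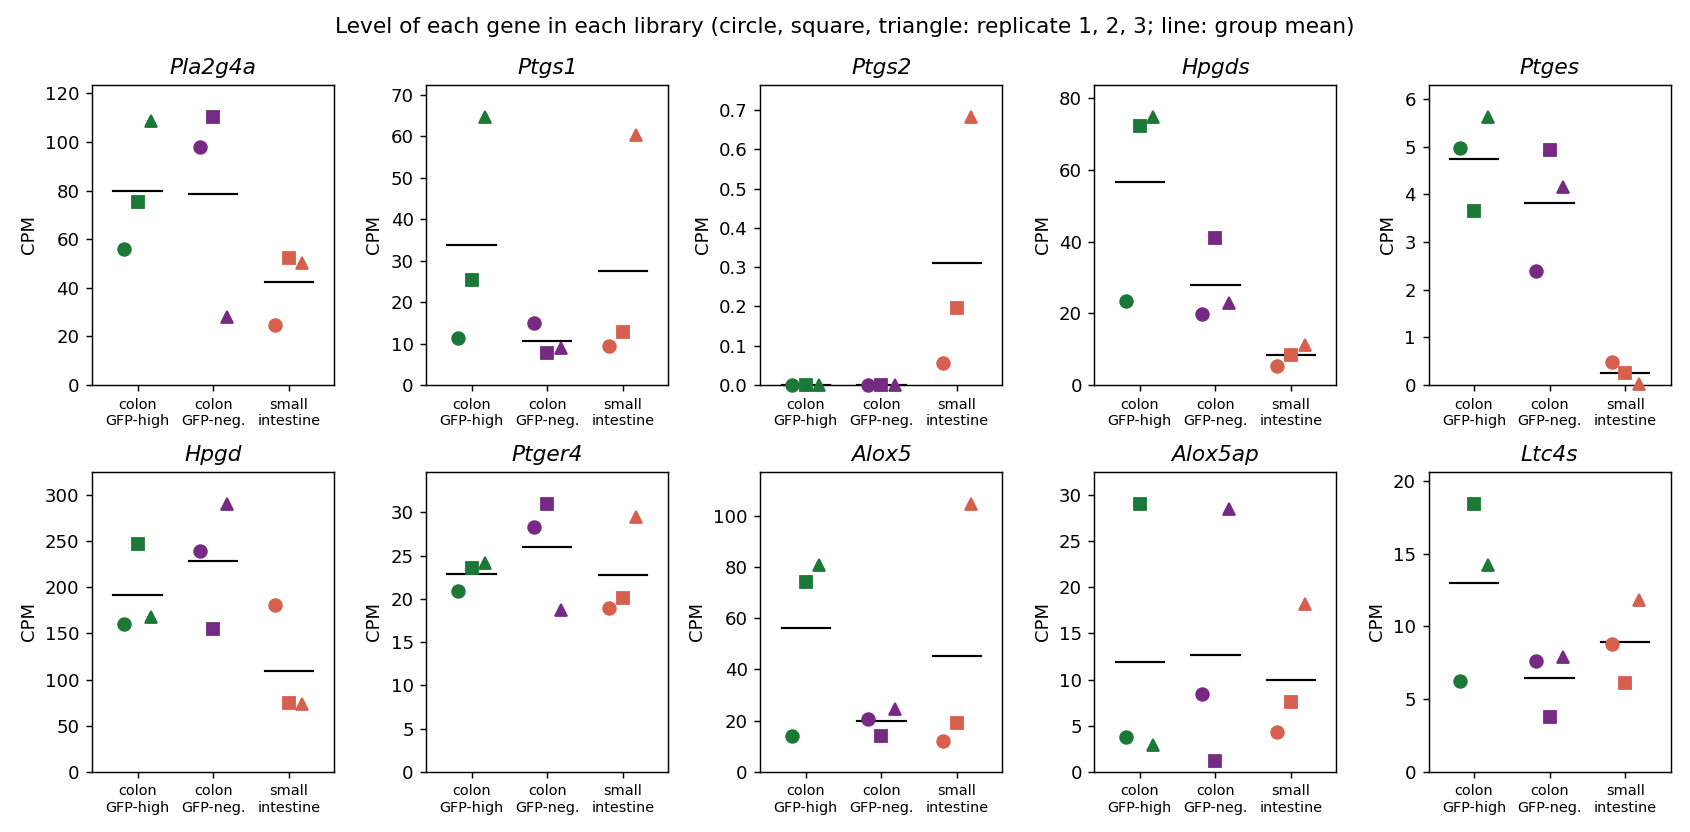
Level of each of the 10 genes in CPM (y axis, linear from 0, with its own range for each gene) in the GFP-high and GFP-negative colon groups and in small intestine (x axis), with 1 point per library (circle, square and triangle for replicates 1, 2 and 3) and a line at each group's mean. Hpgds and Ptges lie lower in all 3 small intestinal libraries than in all 6 colon libraries, and Ptgs2 has counts in small intestine alone.

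**Figure D2:**
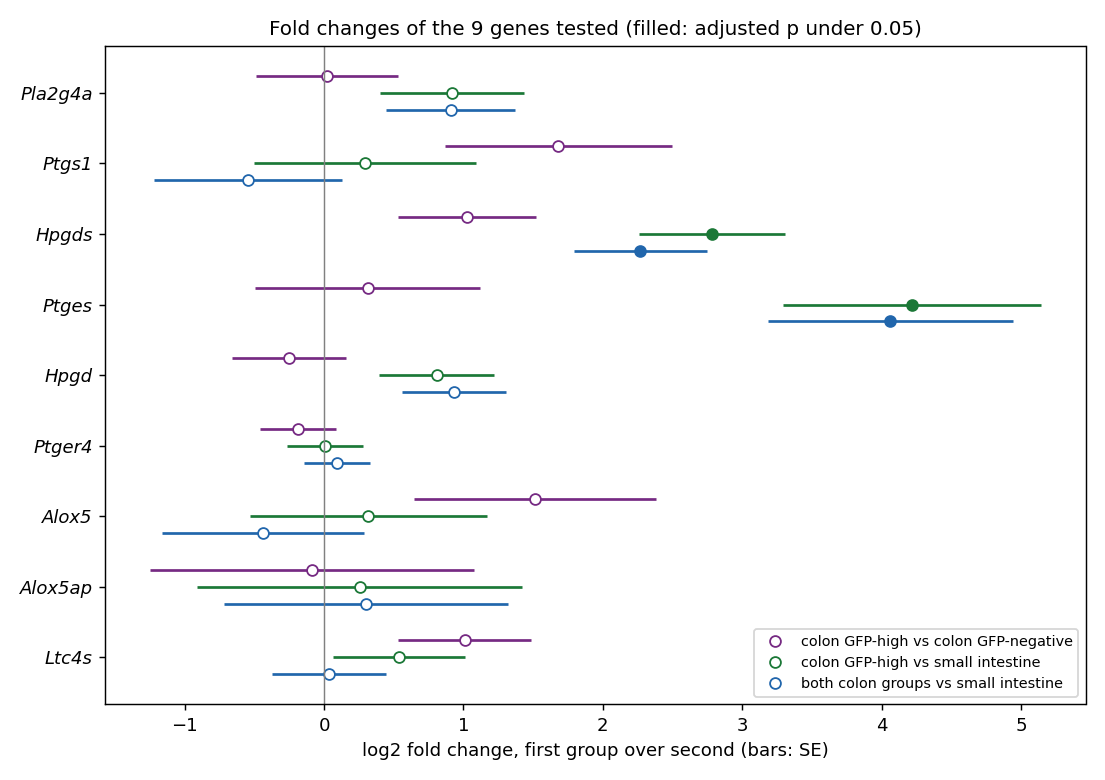
Log2 fold change (x axis) of the 9 tested genes (y axis) in the 3 comparisons, with bars of 1 standard error from edgeR. Hpgds (2.78 and 2.27) and Ptges (4.22 and 4.06) are the called genes, in the comparisons with small intestine, and every other estimate has an adjusted p above 0.05.

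Release of arachidonic acid was represented by Pla2g4a (ENSMUSG00000056220.15, chromosome 1, 149829618 to 149961290, minus strand, GRCm38), which encodes cytosolic phospholipase A2. It had 55.9, 75.3 and 109 CPM in GFP-high replicates 1 to 3, 98.0, 110.2 and 28.0 CPM in GFP-negative, with 24.7, 52.1 and 50.02 CPM in small intestine. All 3 GFP-high libraries lay above all 3 small intestinal ones, as they did for 14.2% of the genes tested, while GFP-negative replicate 3 fell among the small intestinal values. The log2 difference of GFP-high from small intestine was 0.92 ± 0.52 (SE), which did not pass the test (adjusted p = 0.368 in edgeR). In the colon fractions the means were 79.9 ± 26.6 and 78.8 ± 44.4 CPM (SD, n = 3 each), a log2 difference of 0.02 ± 0.51.

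Ptgs1 (ENSMUSG00000047250.14, chromosome 2, 36230426 to 36252272, plus strand) encodes cyclooxygenase 1, the form made without a stimulus in most tissues. Its levels were 11.3, 25.3 and 64.6 CPM in GFP-high libraries, 15.0, 7.76 and 8.81 CPM in GFP-negative, with 9.35, 12.8 and 60.3 CPM in small intestine. GFP-high replicate 3 and small intestinal replicate 3 stood far above the rest, and the groups overlapped. The log2 difference was 1.68 ± 0.81 (SE) between the colon fractions (unadjusted p = 0.0697, adjusted p = 1 in edgeR) and 0.29 ± 0.79 for GFP-high against small intestine (adjusted p = 0.884). Without GFP-high replicate 3 the difference between the colon fractions was 0.78.

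Ptgs2 (ENSMUSG00000032487.9, chromosome 1, 150100031 to 150108227, plus strand) encodes cyclooxygenase 2, the inducible form. It had no count in any of the 6 colon libraries and 4, 20 and 88 counts in small intestinal replicates 1 to 3, which make 0.0548, 0.195 and 0.682 CPM. No colon library reached any small intestinal one, a pattern (no count in 6 colon libraries and a count in all 3 small intestinal ones) that 138 of 38612 genes with a count, 0.357%, shared. The gene was too low to pass the filter of the model, and edgeR without that filter called it in both colon groups against small intestine. Set against a floor of 3 counts in each colon library (0.0279 to 0.0389 CPM), its mean was at least 9.80-fold higher in small intestine, and at least 3.95-fold without small intestinal replicate 3, which carried most of the counts. An exact two-sided permutation test gave p = 0.0238 over 6 and 3 libraries, the smallest that this design allows, and p = 0.1 for GFP-high against small intestine, likewise the smallest possible. On the chromosome Ptgs2 lies 138740 bases from Pla2g4a with 0 protein-coding genes between them in GENCODE M21, and yet Pla2g4a had at least 24.7 CPM in every library.

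Among the synthases that act after cyclooxygenase, Hpgds (ENSMUSG00000029919.6, chromosome 6, 65117293 to 65144908, minus strand) was higher in colon. It had 23.3, 72.2 and 74.7 CPM in GFP-high libraries, 19.8, 41.1 and 22.8 CPM in GFP-negative, with 5.24, 8.32 and 11.2 CPM in small intestine. Every colon library was above every small intestinal one, which 9.49% of all tested genes also showed in this direction. Against small intestine the GFP-high mean was 6.88-fold higher (56.8 ± 29.0 and 8.25 ± 2.98 CPM, SD, n = 3 each), a log2 difference of 2.78 ± 0.52 (SE, adjusted p = 0.0179 in edgeR). For both colon groups it was 5.13-fold higher (42.3 ± 25.3 CPM, n = 6), or 2.27 ± 0.48 on the log2 scale (adjusted p = 0.0203). The log2 difference between the colon fractions, 1.02 ± 0.49, did not pass (unadjusted p = 0.0685, adjusted p = 1). The call for GFP-high ended without GFP-high replicate 2 (2.57, adjusted p = 0.0613) or 3 (2.55, 0.0546) and without small intestinal replicate 1 (2.54, 0.0733) or 2 (2.79, 0.0626). The call for both colon groups ended without small intestinal replicate 1 (2.03, adjusted p = 0.0846), 2 (2.28, 0.0761) or 3 (2.58, 0.0510). With both colon libraries numbered replicate 2 left out, the differences were 2.57 (adjusted p = 0.0599) and 1.97 (0.0626).

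Hpgds is also known from mast cells, whose summed markers were likewise lower in small intestine. The 9 mast cell markers summed to 33.0, 70.4 and 45.7 CPM in GFP-high libraries, 56.9, 44.6 and 308 CPM in GFP-negative, with 10.98 to 16.5 CPM in small intestine. Most of that sum outside GFP-negative replicate 3 was Kit, a receptor that is not limited to mast cells, at 32.3 to 45.2 CPM in colon and 6.13, 10.2 and 16.02 CPM in small intestine. Kit was the 1 gene called of the 7 on that list that were tested (adjusted p = 0.00666 in edgeR for both colon groups). Within colon the highest mast cell sum, in GFP-negative replicate 3, stood beside an Hpgds level of 22.8 CPM, among the lowest of the 6. Cpa3, a defining mast cell protease, had no count in GFP-high replicate 1 and the library labelled GFP-negative replicate 2, where Hpgds had 23.3 and 41.1 CPM, above every small intestinal library. Tuft cell markers (16 genes, Hpgds not among them) summed to 197 to 1171 CPM in colon and to 227, 411 and 1441 CPM in small intestine. Per 100 CPM of that sum, Hpgds stood at 6.27 to 20.9 CPM in the colon libraries. It stood at 2.30, 2.02 and 0.78 CPM in the small intestinal ones. The part of mast or tuft cell content in the Hpgds difference was not tested.

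Ptges (ENSMUSG00000050737.14, chromosome 2, 30889471 to 30929863, minus strand) encodes microsomal prostaglandin E synthase 1. It had 4.98, 3.65 and 5.62 CPM in GFP-high libraries, 2.40, 4.92 and 4.15 CPM in GFP-negative, with 0.494, 0.254 and 0.0232 CPM in small intestine, the last from 36, 26 and 3 counts. All 6 colon libraries lay above all 3 small intestinal ones, as for 9.49% of all tested genes, and the colon fractions overlapped. The GFP-high mean was 18.5-fold that of small intestine (4.75 ± 1.01 and 0.257 ± 0.235 CPM), a log2 difference of 4.22 ± 0.93 (SE, adjusted p = 0.0340 in edgeR). Both colon groups together had 4.29 ± 1.15 CPM, 16.7-fold the small intestinal mean (4.06 ± 0.88 on the log2 scale, adjusted p = 0.0228). Without small intestinal replicate 1 the log2 differences were larger, 5.10 (adjusted p = 0.0486) and 4.94 (0.0372). With the compared groups alone the adjusted p for GFP-high was 0.0502. The call for GFP-high held without GFP-negative replicate 3 or small intestinal replicate 1 or 3 and ended without any of the other 6 libraries, with adjusted p up to 0.108 and a log2 difference of 4.09 to 4.38. The call for both colon groups ended without GFP-high replicate 3 (4.0, adjusted p = 0.0512) or small intestinal replicate 2 (4.06, 0.0883). With both colon libraries numbered replicate 2 left out, the log2 differences were 4.38 (adjusted p = 0.0996) and 4.03 (0.0655).

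The stretches before the transcription start of Hpgds, Ptges and Ptgs2 are shown because these are the 3 members whose colon and small intestinal libraries did not overlap. They are the 250 bases before the start, 5′ to 3′ on the gene's strand, from RefSeq on GRCm38.p6: chr6:65144731-65144980 (minus) for Hpgds, chr2:30903298-30903547 (minus) for Ptges and chr1:150099781-150100030 (plus) for Ptgs2. Capitals mark an octamer.
Hpgds: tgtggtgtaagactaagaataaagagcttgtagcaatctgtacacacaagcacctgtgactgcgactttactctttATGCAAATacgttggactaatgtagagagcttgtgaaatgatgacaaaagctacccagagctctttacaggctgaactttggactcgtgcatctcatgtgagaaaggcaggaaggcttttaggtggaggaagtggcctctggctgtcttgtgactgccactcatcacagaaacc
Ptges: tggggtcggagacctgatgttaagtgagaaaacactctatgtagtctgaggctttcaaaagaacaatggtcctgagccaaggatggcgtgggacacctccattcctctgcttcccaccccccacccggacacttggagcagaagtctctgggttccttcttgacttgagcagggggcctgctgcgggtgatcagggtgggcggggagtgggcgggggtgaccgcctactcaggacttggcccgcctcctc
Ptgs2: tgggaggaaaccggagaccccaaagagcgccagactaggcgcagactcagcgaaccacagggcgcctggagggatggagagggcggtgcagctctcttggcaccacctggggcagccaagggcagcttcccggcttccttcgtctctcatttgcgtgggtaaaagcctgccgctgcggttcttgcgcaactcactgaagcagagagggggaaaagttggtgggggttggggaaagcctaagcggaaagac
The Hpgds stretch is 45.2% G or C with 3 CpG, against 59.6% with 8 CpG for Ptges and 61.6% with 13 CpG for Ptgs2. Windows from 250 bases before to 50 after the start were found for 9 members (10 windows) and searched on both strands for the octamer ATGCAAAT, the E-box CACGTG, the TATA box TATAAA, the cyclic AMP response element TGACGTCA and its shorter form TGACGT. The octamer in Hpgds starts 174 bases before the start, and 570 of 32851 windows (1.74%) hold one. Ptgs2 has ACGTCACGTG from position 13 after the start, in which TGACGT on the other strand (in 7.51% of windows) overlaps the E-box (in 7.15%). The TATA box (in 13.6% of windows) lies at position 5 after the start in Hpgd. It also lies 200 bases before the start, on the other strand, in 1 Pla2g4a window. The Ptges window holds none of the motifs, nor do those of Alox5, Ltc4s, Ptger4 and Ptgs1. A match describes letters, not a bound site.

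Of the members, 3 belong to the leukotriene branch. Alox5 (ENSMUSG00000025701.13, chromosome 6, 116410077 to 116461178, minus strand) encodes 5-lipoxygenase and had 13.8, 74.0 and 80.8 CPM in GFP-high libraries, 20.6, 14.0 and 24.5 CPM in GFP-negative, with 11.8, 18.9 and 105 CPM in small intestine. GFP-high replicates 2 and 3 and small intestinal replicate 3 were high, and the other 6 libraries lay at or below 24.5 CPM. The log2 differences were 1.51 ± 0.87 (SE) between the colon fractions (adjusted p = 1 in edgeR) and 0.32 ± 0.85 for GFP-high against small intestine (adjusted p = 0.883).

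Ltc4s (ENSMUSG00000020377.16, chromosome 11, 50236461 to 50238616, minus strand) encodes leukotriene C4 synthase, which joins leukotriene A to glutathione. It had 6.23, 18.4 and 14.2 CPM in GFP-high libraries, 7.62, 3.77 and 7.92 CPM in GFP-negative, with 8.77, 6.12 and 11.8 CPM in small intestine. The same GFP-high libraries, 2 and 3, were the highest of the 9, and GFP-high replicate 1 lay within both other groups. Neither the difference between the colon fractions (log2 1.01 ± 0.48, unadjusted p = 0.0639, adjusted p = 1 in edgeR) nor that from small intestine (0.54 ± 0.47, adjusted p = 0.588) passed.

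Alox5ap (ENSMUSG00000060063.10, chromosome 5, 149264767 to 149288153, plus strand) encodes the protein that presents arachidonic acid to 5-lipoxygenase. Its levels were 3.81, 29.0 and 2.95 CPM in GFP-high libraries, 8.40, 1.14 and 28.5 CPM in GFP-negative, with 4.29, 7.52 and 18.2 CPM in small intestine. The library labelled GFP-high replicate 2 and GFP-negative replicate 3 were almost equal and highest, and the library labelled GFP-negative replicate 2 was lowest. In these highest libraries the enteroendocrine sums (4 genes) were 10668 and 3140 CPM and the white blood cell sums 311 and 2798 CPM. GFP-negative replicate 1 had sums of 2974 and 628 CPM, with Alox5ap at 8.40 CPM. Small intestinal replicate 3 had Alox5ap at 18.2 CPM with sums of 506 and 40.1 CPM. In GFP-high replicate 3, with 80.8 CPM of Alox5, Alox5ap had 2.95 CPM beside an enteroendocrine sum of 324 CPM and a white blood cell sum of 20.6 CPM. The part of either cell type in the Alox5ap level was not tested. The log2 difference between the colon fractions was -0.09 ± 1.16 (SE, adjusted p = 1 in edgeR). It was -1.91 without the library labelled GFP-high replicate 2 and 1.30 without GFP-negative replicate 3. With both colon libraries numbered replicate 2 left out it was -2.45 (adjusted p = 0.518), and -2.49 in DESeq2 (0.0571).

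**Figure D3:**
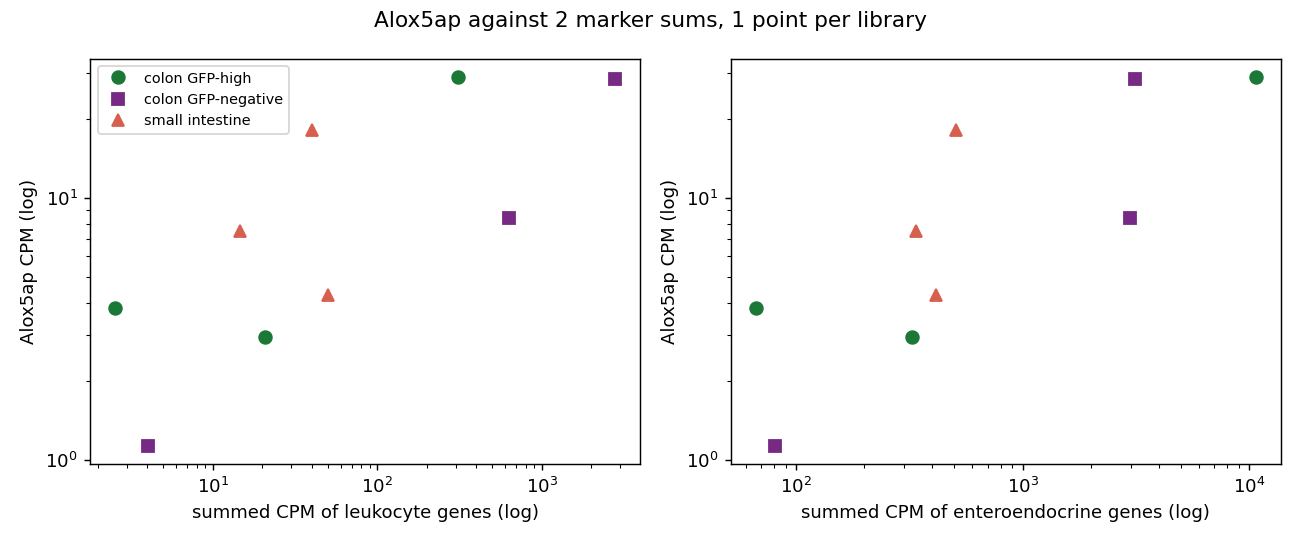
Alox5ap in CPM (y axis, log scale) against the summed CPM of the white blood cell (leukocyte) markers on the left and of the enteroendocrine markers on the right (x axes, log scale), 1 point per library, marked by group. The libraries with the highest Alox5ap, 29.0 and 28.5 CPM, have white blood cell sums of 311 and 2798 CPM and enteroendocrine sums of 10668 and 3140 CPM, while GFP-negative replicate 1, with sums of 628 and 2974 CPM, has 8.40 CPM.

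Levels of Ptgs1 and Alox5 were ordered much as the tuft cell marker sum was. That sum was 277, 743 and 1171 CPM in GFP-high libraries, 245, 197 and 363 CPM in GFP-negative, with 227, 411 and 1441 CPM in small intestine, with the same high libraries. Per 100 CPM of it, Ptgs1 lay between 2.43 and 6.13 CPM over the 9 libraries and Alox5 between 4.59 and 9.95 CPM. Ltc4s spread from 0.82 to 3.86 CPM and Alox5ap from 0.25 to 7.85 CPM on the same scale. All 16 tuft cell markers had a higher fitted level in GFP-high than in GFP-negative libraries, beside 48.2% of all genes tested. Their median log2 difference was 1.32, and none was called. Markers of 1 cell type are not independent of each other. In the colon replicate 2 pair, whose labels Lgr5 contradicts, the sum was 743 CPM under GFP-high and 197 CPM under GFP-negative. In both colon groups against small intestine 1 of the 16 was called, Gnat3, a taste transduction subunit, at 9.37 to 87.9 CPM in colon and 1.33 to 3.17 CPM in small intestine. The part of tuft cell content in the levels of these genes was not tested.

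**Figure D4:**
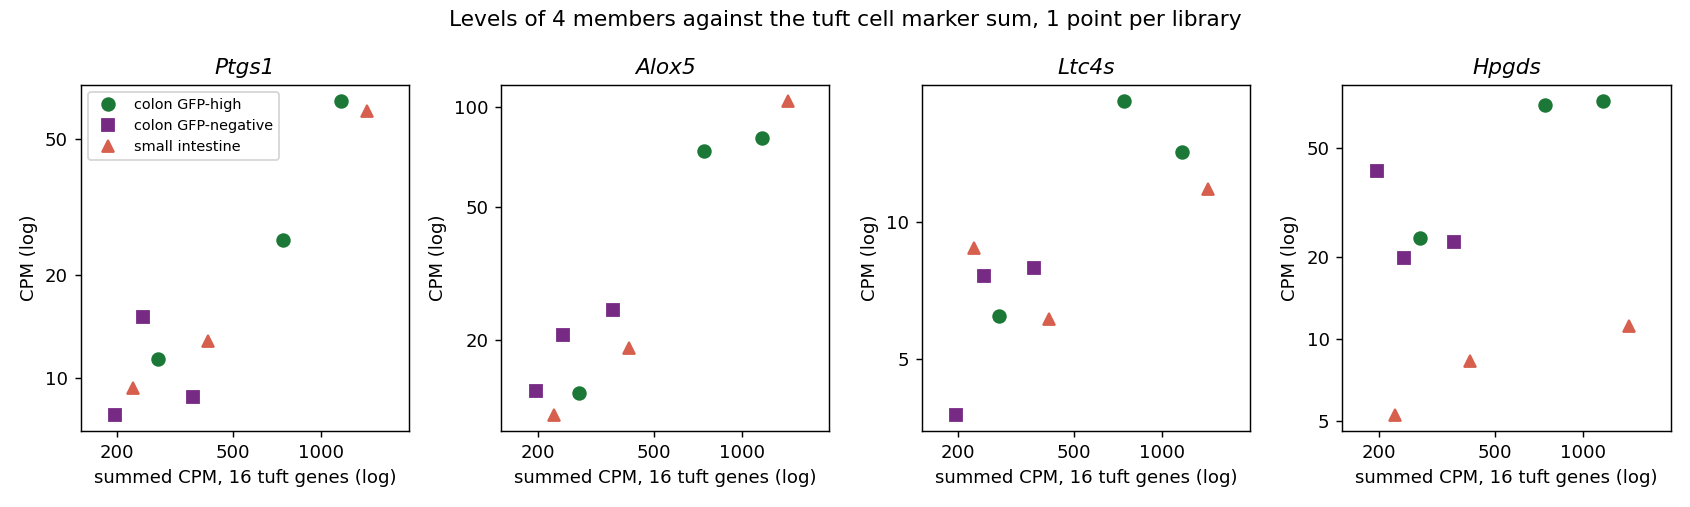
CPM of Ptgs1, Alox5, Ltc4s and Hpgds (y axes, log scale) against the summed CPM of 16 tuft cell marker genes (x axes, log scale), 1 point per library, marked by group. Ptgs1 and Alox5 are high where the sum is high in either tissue, while the 3 small intestinal libraries have Hpgds of 5.24, 8.32 and 11.2 CPM at sums of 227, 411 and 1441 CPM.

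Reception and breakdown of prostaglandin E were represented by Ptger4 and Hpgd. Ptger4 (ENSMUSG00000039942.16, chromosome 15, 5206661 to 5244187, minus strand) encodes the EP4 receptor and was the steadiest member, with 20.9, 23.6 and 24.1 CPM in GFP-high libraries, 28.3, 31.0 and 18.7 CPM in GFP-negative, with 18.9, 20.1 and 29.4 CPM in small intestine. The groups overlapped throughout. The log2 differences were -0.18 ± 0.27 (SE) between the colon fractions, 0.00 ± 0.27 for GFP-high against small intestine and 0.10 ± 0.24 for both colon groups against it (adjusted p = 1, 0.996 and 0.842 in edgeR). Its exons overlap those of Ttc33 on the other strand in GENCODE M21, and those of Ptgs1, Alox5ap and Ltc4s overlap noncoding or unclassified genes on the other strand. Whether the counting used strand is not given in the sources used here, so these 4 levels are uncertain to that extent.

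Hpgd (ENSMUSG00000031613.10, chromosome 8, 56294585 to 56321043, plus strand) encodes the dehydrogenase that begins prostaglandin breakdown. It had 160.0, 247 and 168 CPM in GFP-high libraries, 239, 155 and 290.4 CPM in GFP-negative, with 181, 74.2 and 73.8 CPM in small intestine. Small intestinal replicate 1 lay among the colon libraries, and replicates 2 and 3 lay below all of them. The difference of both colon groups from small intestine, 0.93 ± 0.37 on the log2 scale, did not pass (adjusted p = 0.163 in edgeR), and without small intestinal replicate 1 it was 1.5 and passed (adjusted p = 0.0425). GFP-high against GFP-negative gave a log2 difference of -0.25 ± 0.41 (adjusted p = 1).

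Levels of different genes were compared per length, as RPKM (CPM per kilobase, with the deposited gene lengths). Hpgd was the highest of the 10 members in each of the 9 libraries, with a mean of 114 ± 28.7 RPKM (SD, n = 3) in GFP-high, 136 RPKM in GFP-negative and 65.2 ± 36.7 RPKM in small intestine. In GFP-high it was followed by Alox5 (13.7 ± 8.97), Ltc4s (12.8 ± 6.10), Pla2g4a (12.5 ± 4.17), Hpgds (8.83 ± 4.51), Ptgs1 (8.68 ± 7.11) and Alox5ap (8.40 ± 10.4), neighbours whose means lay within their SDs. Ptger4 (3.44 ± 0.260) and Ptges (1.21 ± 0.256) came last among those with a count. In GFP-negative libraries Pla2g4a was next to Hpgd, at a mean of 12.3 RPKM, and Ptgs1 was down to 2.71 RPKM. In small intestine Hpgds (1.28 RPKM), Ptgs2 (0.0678 RPKM) and Ptges (0.0654 RPKM) were the lowest. The ratio of Hpgd to Ptgs1, breakdown to first synthesis step on the RPKM scale, ran from 2.83 in small intestinal replicate 3 to 76.1 in GFP-negative replicate 3.

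**Figure D5:**
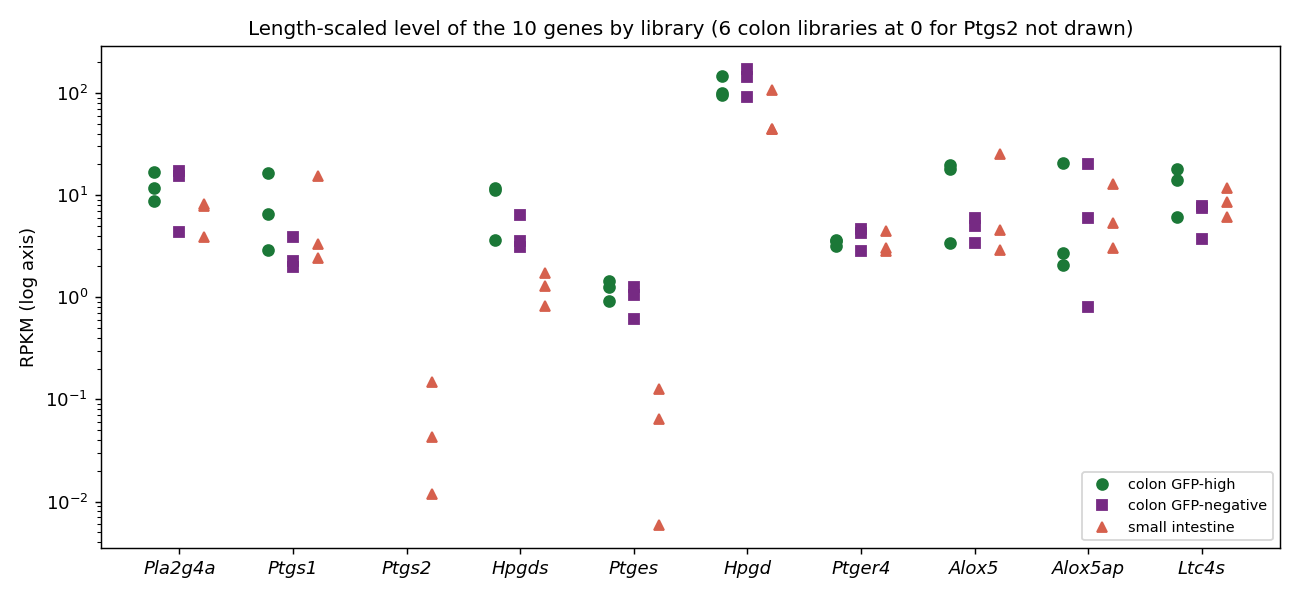
RPKM (log scale) of the 10 genes (x axis) in each library, with points marked by group and the 6 colon libraries at 0 for Ptgs2 not drawn. Hpgd is highest in all 9 libraries, and Ptges and Ptgs2 are lowest in small intestine.

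The remaining pathway was followed with 66 further genes, of which 64 were found by a unique symbol and 54 could be tested. In both colon groups against small intestine 4 were called higher in colon and 11 lower, beside 5.02% and 3.74% of all genes, and 31 of the 54 had a positive difference, beside 49.995% of all genes. For GFP-high against small intestine 2 were called higher and 2 lower, and between the colon fractions none. By role, the calls in both colon groups against small intestine were 3 higher and 2 lower of 17 phospholipases, 0 and 2 of 7 prostanoid synthases, 0 and 2 of 9 lipoxygenases and leukotriene enzymes, 1 and 1 of 7 prostanoid receptors, 0 and 1 of 4 leukotriene receptors and 0 and 3 of 10 genes of transport and breakdown.

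The higher genes in colon were phospholipases and a prostaglandin E receptor. Pla2g10, a secreted phospholipase A2, had 225, 444 and 147 CPM in GFP-high libraries, 456, 210 and 381 CPM in GFP-negative, with 20.9, 8.45 and 3.02 CPM in small intestine, 28.7-fold higher in colon (log2 4.84 ± 0.75 SE, adjusted p = 0.00572 in edgeR). Ptger3, which encodes the EP3 receptor, had 2.04 to 8.90 CPM in the 6 colon libraries and 0.0823, 0.195 and 0.232 CPM in small intestine, 27.7-fold higher in colon (4.76 ± 0.78, adjusted p = 0.00693). No colon library of either gene came near a small intestinal one, and 9.49% of all tested genes likewise did not overlap in this direction. GFP-high alone differed from small intestine by 4.66 ± 0.78 for Pla2g10 (adjusted p = 0.0106) and 4.65 ± 0.80 for Ptger3 (0.0124). Without small intestinal replicate 1 the Pla2g10 differences were 5.75 and 5.57, still called, and the GFP-high call of Ptger3 ended (4.34, adjusted p = 0.0523), as it did in limma-voom (4.38, 0.0677). Without the library labelled GFP-high replicate 2 that difference of Ptger3 was 3.85 (adjusted p = 0.0336). Pla2g2f, at 10.7 to 43.7 CPM in colon and 3.29 to 6.29 CPM in small intestine (2.31 ± 0.46, adjusted p = 0.0166), lost its call without small intestinal replicate 1 (2.14) or 3 (2.21). Pla2g2c, at 0.544 to 2.63 CPM in colon and 0.0960, 0.0683 and 0 CPM in small intestine (4.75 ± 1.11, adjusted p = 0.0318), kept its call without 4 of the 9 libraries, with differences of 4.16 to 5.41 over all 9, and lost it without both colon replicate 2 libraries (4.73, adjusted p = 0.0795).

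Lta4h, whose enzyme makes leukotriene B from leukotriene A, was lower in colon, with 289, 252 and 284 CPM in GFP-high libraries, 244, 314 and 256 CPM in GFP-negative, with 586, 553 and 524 CPM in small intestine. The groups were tight, with colon 2.03-fold lower (log2 -1.02 ± 0.18 SE, adjusted p = 0.00844 in edgeR). GFP-high alone differed by -1.01 ± 0.21 (adjusted p = 0.0279), a call that held without GFP-negative replicate 2 or 3 and ended without any of the other 7 libraries, at differences of -1.02 to -0.95 and adjusted p up to 0.120. It also ended with total-count scaling (-0.93, adjusted p = 0.0779), without the filter on low counts (0.0875), with the compared groups alone (0.0689) and without both colon replicate 2 libraries (0.164).

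Ptgdr, a prostaglandin D receptor, had no count in the 6 colon libraries and 0.754, 0.156 and 1.26 CPM (55, 16 and 163 counts) in small intestine. It was at least 22.9-fold higher there against 3 counts per colon library (adjusted p = 0.0172 in edgeR). Without small intestinal replicate 3 the bound was 14.4-fold and the call ended (adjusted p = 0.0883), as it did without replicate 1 (bound 22.4-fold, 0.0707). For GFP-high alone against small intestine Ptgdr was not called (adjusted p = 0.0532 in edgeR). Hpgds, which makes the ligand of this receptor, was higher in colon, where Ptgdr had no count. Ptgdr2, another prostaglandin D receptor, had 0.178 ± 0.314 CPM (SD) over both colon groups and 0.0488 ± 0.0846 CPM in small intestine. It was not called (adjusted p = 0.897 in edgeR).

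The other genes lower in colon had uneven small intestinal levels. Ephx2, a soluble epoxide hydrolase, had 27.8 to 45.6 CPM in colon and 531, 66.1 and 316 CPM in small intestine (log2 -3.02 ± 0.49 SE, adjusted p = 0.00692 in edgeR), and -2.35 without small intestinal replicate 1. Ggt1, a gamma-glutamyltransferase, had 0.115 to 3.80 CPM in colon and 426, 4.34 and 205 CPM in small intestine (-7.66 ± 1.36, adjusted p = 0.00968), with -8.76 without GFP-high replicate 3 and -6.64 without small intestinal replicate 1. The Ggt1 call ended in limma-voom (-6.82, adjusted p = 0.0755) and without both colon replicate 2 libraries (-7.27, 0.0501). In each the second small intestinal library was the lowest and the first the highest. Alpi, 1 of 4 absorptive cell markers, had 1852, 20.6 and 696 CPM in the same libraries. The 4 together summed to 2760, 80.4 and 930 CPM there. In colon they summed to 508 to 21262 CPM in GFP-high and 3107 to 24922 CPM in GFP-negative libraries. In both colon groups against small intestine 1 of the 4 was called higher and 1 lower. The part of absorptive cell content in these values was not tested. For GFP-high alone Ephx2 differed by -2.95 ± 0.63 (adjusted p = 0.0309), and its call held without GFP-negative replicate 3 or small intestinal replicate 2 and ended without any of the other 7 (-3.06 to -2.27, adjusted p up to 0.115), in limma-voom (0.0576), with the compared groups alone (0.0583) and without both colon replicate 2 libraries (0.135).

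A further 5 called genes were less stable to the loss of a library. Pla2g12b (log2 -3.50 ± 0.74 SE, adjusted p = 0.0205 in edgeR) lost its call without GFP-high replicate 3, GFP-negative replicate 1 or small intestinal replicate 1, where it was -2.04. Cyp4f14, an omega-hydroxylase of leukotriene B (-3.55 ± 0.81, 0.0280), and Akr1b7, an aldo-keto reductase (-4.85 ± 1.04, 0.0218), were called only without GFP-negative replicate 3 or small intestinal replicate 2, and without small intestinal replicate 1 stood at -2.47 and -3.03. Pla2g1b, a pancreatic-type phospholipase (-4.95 ± 1.08, 0.0231), was called without small intestinal replicate 2 or 3 only and was -2.04 without replicate 1. Ltb4r2, a leukotriene B receptor (-3.39 ± 0.86, 0.0433), was called without small intestinal replicate 2 only and was -2.42 without replicate 1. Of these 5, all but Pla2g12b also lost their call in limma-voom and without both colon replicate 2 libraries. All 5 were highest in small intestinal replicate 1, as Alpi was. Prxl2b and Cyp4f16 completed the 11 lower genes, outside the 12 largest differences, with 69.6 to 272 and 50.04 to 197 CPM in small intestine and 25.9 to 43.4 and 35.8 to 63.2 CPM in colon.

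Likeness across the libraries was measured as Pearson's r of log2 CPM over the 9 libraries among 13538 genes with a mean of at least 1 CPM, and is a description, since all points share library and depth. Ptgs1 was most like Cd300lf (0.968), Trpm5 (0.960) and Matk (0.956), and Alox5 was most like Gm30842 (0.983), Dclk1 (0.979) and Pik3r5 (0.976). Trpm5 and Dclk1 are on the tuft cell list. The closest gene to Ltc4s was Pou2af2 (0.930), to Alox5ap Prkar1b (0.948), followed by Fev (0.938), to Hpgds Zfp667 (0.962), to Hpgd Hint3 (0.986), to Pla2g4a Glb1 (0.972), to Ptges Mctp1 (0.985) and to Ptger4 Lrig3 (0.926). Among the members themselves r was 0.920 for Ptgs1 with Alox5 and 0.811 for Alox5 with Ltc4s over the 9 libraries. Alox5ap and Hpgd had r of 0.928 over the 6 colon libraries and 0.162 over all 9.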

How the data were processed

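The deposited table held, per the file headers, raw read counts, the authors' deposited log2 CPM and the length of each gene, and for each library its total and TMM scaling factor, a ratio of 0.805 to 1.21. STAR, featureCounts, Subread, edgeR and the build mm10 are named in the submitters' processing notes. Not given in the sources used here are the annotation release, the strand setting and the treatment of reads that map to several places. Recomputing the log2 CPM (prior count 2) from the counts gave the deposited values to within 1e-06.

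All 9 libraries were fitted together in R 4.3.3 with edgeR 4.0.16 (glmQLFit and glmQLFTest, two-sided, filterByExpr by group, TMM scaling, no covariate), and p-values were adjusted over the 20610 genes tested. The third comparison set the mean of the 2 colon group coefficients against small intestine. With a common biological coefficient of variation of 0.726, the spread between libraries set the precision, and floors of 3 counts cover counting error only. Alternatives used DESeq2 1.42.0, limma 3.58.1, total-count scaling, no filter, the compared groups alone, replicate blocks and libraries left out.

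The members and lists were chosen with earlier results of these data known. Named were all members, and of the pathway lists the called genes, at most 12 per comparison by size. Coordinates are from GENCODE M21 on GRCm38, promoter windows from RefSeq on GRCm38.p6, which may not be the annotation behind the counts. The symbols Akr1b3 (0 entries) and Dpep2 (2 entries) were not matched to 1 gene and were left out.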

Additional observations from a re-analysis of the deposited data

How the results depend on the processing

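The fit used each library as labelled. Of the 27 member results (9 genes in 3 comparisons) 23 were not called. Of these 11 kept their sign under every alternative run and 12 turned in at least 1, in 46 values. For GFP-high against small intestine, 2 members were called, 1 (Hpgds) with the compared groups alone, 1 (Hpgds) with a replicate block by number, 0 with a replicate block by library name tag and 0 without the colon replicate 2 pair (its DESeq2 form was chosen after seeing the data), and 0 to 2 with 1 library left out. For both colon groups against small intestine these were 2, then 1 (Hpgds) and 0 with the blocks, 0 without the pair and 0 to 2, and 3 without the filter on low counts and in DESeq2 without the pair, where Ptgs2 was added. Between the colon fractions 0 members were called under all 19 alternatives. DESeq2 called Hpgds (adjusted p = 1.70e-06 and 6.22e-06) and Ptges (1.31e-06 and 4.08e-08) in the comparisons with small intestine. Over all alternatives the adjusted p ran to 0.183 and 0.221 for Hpgds and to 0.263 and 0.296 for Ptges, each under the tag block.

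Under the alternatives run, the largest differences between the colon fractions kept their sign. They ran from 0.58 to 2.10 for Ptgs1, 0.73 to 1.97 for Alox5, 0.34 to 1.33 for Ltc4s and 0.69 to 1.41 for Hpgds. No alternative exchanged the labels of the colon replicate 2 pair, which Lgr5 contradicts. In that pair each of these genes was higher under the GFP-high label, as with Alox5 at 74.0 and 14.0 CPM. Among the differences that were not called, the following turned. Between the colon fractions Alox5ap was 0.08 in limma-voom, 0.56 with the tag block, -2.45 without the pair, -2.49 in DESeq2 without it (adjusted p = 0.0571) and -1.91 to 1.30 with 1 library left out. Hpgd was 0.00 and Pla2g4a -0.54 with the tag block, and Pla2g4a was -0.39 to 0.34 with 1 library left out. For GFP-high against small intestine Alox5ap was -0.40 in limma-voom, -0.01 with total-count scaling, -1.13 with the tag block, -1.57 without the pair, -1.55 in DESeq2 without it and -1.57 to 1.03 with 1 library left out. Ptger4 was -0.10 with the tag block, -0.02 without the pair, -0.00 in DESeq2 without it and -0.11 to 0.26 with 1 library left out, Ptgs1 was -0.56 to 1.64 and Alox5 -0.14 to 1.90. For both colon groups Alox5 was 0.06 with the number block, Alox5ap was -0.44 in limma-voom, -1.41 with the tag block, -0.34 without the pair and -0.31 in DESeq2 without it, and Ltc4s was -0.04 both in limma-voom and under total-count scaling. With 1 library left out these were -0.89 to 1.15, -0.61 to 1.08 and -0.17 to 0.31, with Ptgs1 at -0.96 to 0.80 and Ptger4 at -0.02 to 0.35. The cause was not tested.

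Over all genes, calls for GFP-high against small intestine numbered 1161, with 2713 in DESeq2, 508 with the number block, 18 with the tag block, 504 without the pair (1868 in DESeq2) and 566 to 1334 with 1 library left out. For both colon groups they were 1805, then 3618, 887, 17, 1082 (2845) and 981 to 1758. Between the colon fractions they were 0, with 1 in DESeq2 and 702 in DESeq2 without the pair. Total-count scaling moved the median difference of all genes between the colon fractions from -0.02 to 0.13. Deviations from group means correlated at -0.604 to 0.304 between libraries of the same number, and 3 per group cannot decide pairing. The library names also carry tags that link groups and tissues: GFP-high 1, GFP-negative 1 and small intestine 2 share a tag, as do the colon replicate 2 libraries, and GFP-high 3 and small intestine 3. The labels do not say what a tag marks. Libraries that share a tag had correlations of -0.086, 0.275, -0.005, -0.604 and 0.131, and the tag block gives no weight to GFP-negative 3 and small intestine 1, each alone in its tag. This block ended every member call and the calls of all 13 pathway genes named with log2 values or bounds for both colon groups (adjusted p of 0.108 to 0.922) and of the 4 called for GFP-high (0.118 to 0.298). The number block ended 9 of the 13 and 3 of the 4. Depth limits Ptgs2 and Ptges in small intestine, at 4 and 3 counts in their lowest libraries.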
